A study of Rattus norvegicus with 8 samples.

Results

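Isolated CpG sites in CpG-poor stretches of the rat genome were examined in 2 brain regions. A CpG dyad is a C followed by a G, read together on both strands. Dyads were kept where each of 8 libraries had at least 10 calls, a call being 1 read's verdict on 1 cytosine. Counts and shares over all kept or all tested dyads include those listed outside chromosomes 1 to 20, which belong to no class of tile. The genome was divided into fixed tiles of 1000 bases. A dyad on chromosomes 1 to 20 counted as isolated when its tile held only 1 or 2 kept dyads. In addition, no tile with 21 or more kept dyads could lie within 2 tiles on either side. This gave 63691 isolated dyads of 772179 kept dyads (8.25%), spread over 41668 of 140156 tiles. Of these, 19645 were alone in their tile and 44046 shared one of 22023 tiles with a single other kept dyad. The rule used position and coverage, not methylation values, although CpG density and level are related.

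The libraries were made by reduced representation bisulfite sequencing, in which the enzyme MspI cuts DNA at CCGG, short fragments are kept, and bisulfite makes unmethylated cytosines read as T. All 8 came from male Sprague Dawley rats, 4 libraries from hippocampus and 4 from hypothalamus. Every rat had an omega-3 diet containing docosahexaenoic acid (DHA) for 6 weeks from 2 months of age. The protocol text shared by all samples also mentions fructose, but the diet label of each library names DHA only, and the chow-fed rats of the study were not analysed here. The remaining contrast is that of tissue. The labels do not say whether the replicates are separate animals, so p-values measure only the spread between these samples, which may be technical. The tissue labels were not checked against marker genes, since the files hold no expression and name no genes.

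In mammalian body cells most CpGs that stand apart in CpG-poor DNA carry methyl groups, placed by DNMT enzymes and copied at cell division, while CpG islands at many gene starts stay free of them. Neurons also carry methylation outside CpG, mostly at C followed by A. Because a tissue is a mixture of cell types, a level between the extremes can come from partial methylation of every cell or from full methylation of some cells, and these cannot be told apart here.

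The sequences below show some isolated dyads that lie in promoters. They are not typical of isolated dyads: those matched to promoters had a median level of 31.6%, and all isolated dyads 85.5%. The deposited coordinates are in build rn5, per the submitters' processing notes, and no rn5 sequence was used, so dyads were placed by pattern instead: the run of listed cytosines around a dyad, with their strands and spacings, was matched to 33469 RefSeq promoter windows of build GRCr8, each reaching from before a gene start to shortly after it. A match had to cover at least 60 bases and 8 cytosines and to fit 1 locus only among these windows. The rest of the genome was not searched, so single placements, and the gene names resting on them, may be wrong. Matches of this kind were found for 456 dyads, and the 386 whose window lay on the deposited chromosome were used. They lay in 270 promoters, with a median of 98 matched bases and 25 matched cytosines. The stretches were chosen after their values were seen, to show a called rise (Krt2, Batf2, Olfm3), a called fall (Ppm1m), genes of brain signalling (Kiss1, Galr3, Oprm1, Mc3r) and the low and high ends (Eif3f, Taar6). Each is printed 5′ to 3′ on the gene's strand, with the isolated CpGs in capitals. CpGs left in lower case were not among the dyads kept in all 8 libraries or fell in another tile.
Krt2: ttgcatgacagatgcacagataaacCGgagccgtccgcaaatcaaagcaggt
Batf2: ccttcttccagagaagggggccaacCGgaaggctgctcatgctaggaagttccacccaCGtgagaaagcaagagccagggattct
Olfm3: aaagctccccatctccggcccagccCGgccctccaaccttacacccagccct
Ppm1m: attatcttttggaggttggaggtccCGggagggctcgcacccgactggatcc
Kiss1: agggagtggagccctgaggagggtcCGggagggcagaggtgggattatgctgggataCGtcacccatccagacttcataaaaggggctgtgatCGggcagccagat
Galr3: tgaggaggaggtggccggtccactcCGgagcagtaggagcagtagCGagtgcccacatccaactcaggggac
Oprm1: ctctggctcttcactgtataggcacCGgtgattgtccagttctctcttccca
Mc3r: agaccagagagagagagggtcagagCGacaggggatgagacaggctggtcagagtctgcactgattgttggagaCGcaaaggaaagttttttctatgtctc
Eif3f: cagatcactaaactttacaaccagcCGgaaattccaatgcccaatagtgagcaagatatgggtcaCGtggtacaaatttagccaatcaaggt
Taar6: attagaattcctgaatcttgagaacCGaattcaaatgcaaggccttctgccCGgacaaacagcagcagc
In GRCr8 the Krt2 stretch is chr7:134826900-134826951 on the minus strand, Batf2 chr1:212897167-212897251 on the plus strand, Olfm3 chr2:205598767-205598818 (plus), Ppm1m chr8:115719611-115719662 (minus) and Kiss1 chr13:47327053-47327158 (plus). Galr3 is chr7:112485460-112485531 (plus), Oprm1 chr1:45565288-45565339 (plus), Mc3r chr3:181434618-181434718 (plus), Eif3f chr1:172368940-172369031 (plus) and Taar6 chr1:23277648-23277716 (plus). All other coordinates below are the deposited rn5 positions.

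Depth and library likeness bear on every value that follows. Listed cytosines held 178178404 to 625653602 calls per library, lowest in hypothalamus 3 and 4, and the median isolated dyad had 65, 59, 61 and 71 calls (hippocampus 1 to 4) or 53, 61, 21 and 31 calls (hypothalamus 1 to 4). Dyads that vary like a genotype (levels under 20%, from 30% to 70% and over 80% in different libraries) numbered 25 of 27553 isolated dyads with at least 20 calls in every library (0.0907%). At these 25 the level class was the same at 100% between hippocampus 1 and hypothalamus 1 and at 96% between hippocampus 4 and hypothalamus 4, but at 16% to 56% in the other 26 pairs of libraries. The libraries of those pairs may therefore not be independent, and counts without them are given beside the calls. Hippocampus 3 and 4 and hypothalamus 1 and 4 also had higher levels (1.0% to 1.85%) at CHH cytosines followed by C, where H is A, C or T, than the other 4 libraries (0.310% to 0.412%). Such cytosines are often used as a measure of unconverted DNA, and where a dyad among the largest gains, falls or pairs lost its call within either set of 4, that value is given.

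Isolated dyads were highly methylated in both tissues. Hippocampus 1 to 4 had mean levels of 75.53%, 74.51%, 75.7% and 76.09%, and hypothalamus 1 to 4 had 77.14%, 76.1%, 76.32% and 79.64%. The tissues touched without overlapping, with hippocampus 4 just under hypothalamus 2, and hypothalamus 4 stood highest. Means over libraries were 75.5% ± 0.671 and 77.3% ± 1.63 (SD, n = 4 each), so that hypothalamus was 1.84 points higher, or 1.06 points without hypothalamus 4. Within the 4 libraries of lower CHH level the difference was 1.18 points, and within the 4 of higher level it was 2.50 points. No p is given for this mean, because it is a score over chosen sites.

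**Figure D1:**
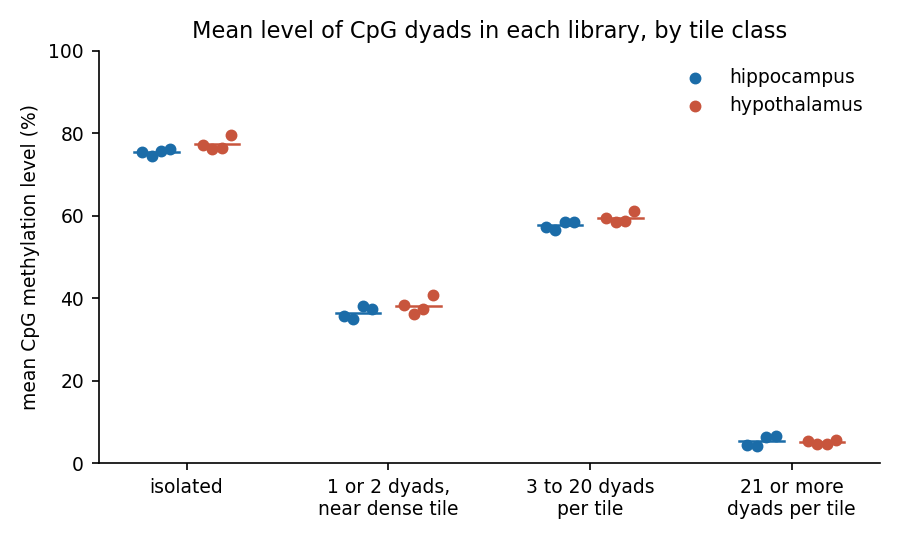
Mean CpG methylation level (y axis, percent) of each library, by class of tile (x axis). Points are libraries in replicate order 1 to 4, blue for hippocampus and red for hypothalamus, and lines are tissue means. Isolated dyads lie between 74.51% and 79.64% in all 8 libraries, above every library of the other 3 classes.

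Density set isolated dyads apart from the denser classes as a whole far more than tissue did. Tiles of 3 kept dyads with no dense tile near did not differ in this way, with a mean of 75.9%. Dyads in tiles of 3 to 20 kept dyads averaged 57.7% ± 0.961 (hippocampus) and 59.4% ± 1.17 (hypothalamus), and those in tiles of 21 or more averaged 5.41% ± 1.25 and 5.08% ± 0.518 (SD, n = 4 each). The lowest isolated value of any library (74.51%) was above the highest of tiles with 3 to 20 dyads (61.07%). Even dyads with equally few neighbours but a dense tile close by, 1338 in number, averaged only 36.5% ± 1.51 and 38.2% ± 1.93 (SD, n = 4 each). These poor tiles beside dense ones held dyads of all levels, with 45.5% under 20% and 20% over 80%.

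The distribution of single dyads was skewed to the top. Over the mean of the 8 libraries the median isolated dyad was at 85.5%, the 5th percentile at 21.2% and the 95th at 97.0%. Of isolated dyads 61.1% lay over 80% and 4.71% under 20%, while of all kept dyads 38.6% and 37.8% did. In tiles of 3 kept dyads with no dense tile near, the shares were 60.7% and 5.38%, close to those of isolated dyads. Of isolated dyads 39.8% (25370) were over 80% in each of the 8 libraries at once, and of all kept dyads 26.6% were. A group of 34.2% lay from 20% to 80%, the range in which the tissues were called different most often.

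**Figure D2:**
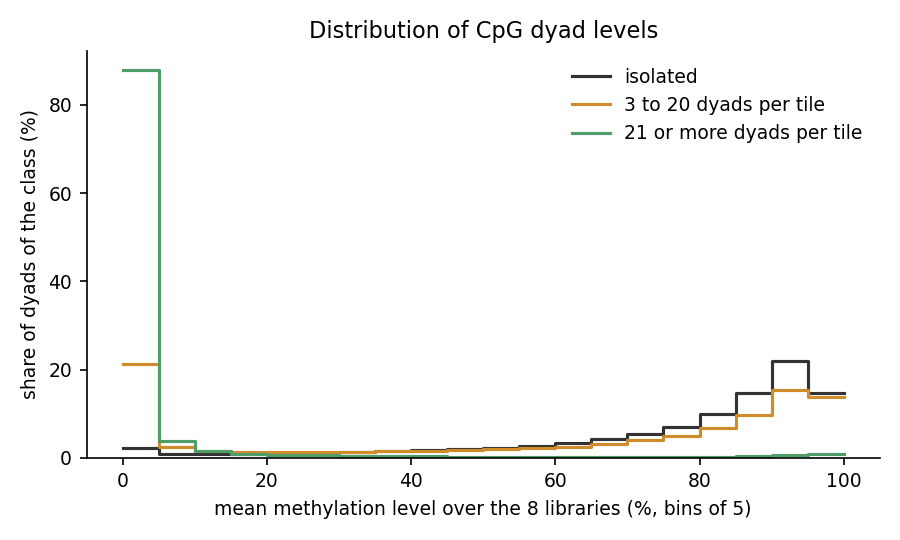
Share of the dyads of a class (y axis, percent) in bins of mean level over 8 libraries (x axis, percent). Isolated dyads pile up over 80% (61.1% of them), tiles of 21 or more dyads pile up at the low end, and tiles of 3 to 20 dyads have both peaks.

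Fewer neighbours did not raise the level further. Single dyads of a tile had a mean of 76.0% and pairs 76.5%. The mean then declined slowly through 75.9%, 74.6%, 72.9% and 70.7% in tiles of 3, 4, 5 and 6 kept dyads with no dense tile near. The share of dyads under 20% grew over the same steps, from 5.02% and 4.57% to 11.2%. Kept dyads are those the assay covered, so a tile with 1 or 2 of them can hold more CpGs. Counting every dyad listed in any library, 61.5% was the mean level of the 1337 isolated dyads in tiles of 11 to 20 listed dyads and 28.9% that of the 220 in tiles of 21 or more, against 77.1% for the 10671 that were alone by this count as well. With density taken from that fuller count, 38030 dyads were isolated, all of them also isolated by kept dyads, and 64.2% of them were over 80%.

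The few isolated dyads without methylation were often in richer tiles too. There were 1426 with a mean under 5%, of which 463 were single and 963 were in pairs, and in 342 tiles both dyads were under 5%. Of these 1426 dyads 41.2% had 5 or more dyads listed in their tile, and of all isolated dyads 17.5% did. No methylated call was seen in any library at 31 isolated dyads, where 135 to 661 calls in all allow a level of up to 2.22% at the shallowest and 0.454% at the deepest. One of them, chr9:54187032-54187033, was the only dyad listed in its tile and had 0 methylated of 593 calls, 32 to 103 in each library, which allows a level of up to 0.506%. The next lowest with at least 30 calls per library were at 0% in 7 of 8 libraries and at most 1.11% in the other: chr2:191541999-191542000, chr14:15745382-15745383, chr7:117259993-117259994 and chr1:102778965-102778966. These limits and intervals cover counting error only, since reads of 1 molecule cannot be told from reads of several.

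Most isolated dyads were read from the start of a fragment. A listed cytosine with no other listed cytosine of its strand in the 40 bases before it was taken as the first of its read, which in this assay is where MspI cut. Among isolated dyads read on 1 strand only, 72.3% (40393) were first cytosines, against 29.9% of all kept dyads, 29.4% in tiles of 3 to 20 and 10.6% in tiles of 21 or more. First cytosines had a mean level of 78.0% and the 15486 inner ones 74.2%, and in each of the 8 libraries the first were higher (77.24% and 73.07% in hippocampus 1, 81.57% and 76.52% in hypothalamus 4). Whether read position itself moves the level was not tested. In the promoter windows, among dyads whose flanking letters lay inside the window, 196 of 198 first cytosines (99%) sat in a CCGG and 4 of 112 inner ones (3.57%) did. CCGG reads the same on both strands and occurs in 51.4% of all promoter windows. In the sequences above, Krt2, Batf2, Olfm3 and Oprm1 show it as cCGg, with few or no other kept CpGs around it.

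The strands of a dyad agreed closely where both could be read. At 1039 isolated dyads (1.63%) with both strands listed in all 8 libraries, the plus strand averaged 72.5% and the minus strand 72.6%, and the median absolute difference was 2.24 points. Pearson's r between strands was 0.974 over these 1039 dyads, which share libraries and loci. Only 4 differed by over 30 points, and at 2 the difference exceeded 20 points the same way in all 8 libraries.

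Whether single isolated dyads differed between hippocampus and hypothalamus was tested with a logistic model of each dyad's methylated and unmethylated calls (quasi-binomial, with spread shared across dyads through limma), fitted to, and with Benjamini-Hochberg adjustment across, all 433557 kept dyads with a mean level of 5% to 95%. Calling required an adjusted p below 0.05 together with tissue means at least 10 points apart. Of the 63691 isolated dyads, 52975 (83.2%) could be tested, 9290 having a mean over 95% and 1426 one under 5%. In all 4235 were called, or 7.99%, where the share over all tested dyads was 9.81%. They were mostly higher in hypothalamus: 3732 (7.04%, against 8.58% of all tested dyads) rose there and 503 (0.95%, against 1.23%) fell. The share called was thus near that of the whole table and somewhat below it in both directions, and the tilt to hypothalamus (88.1% of calls) was that of all dyads (87.4%).

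The size of called differences was that of all dyads. The median was 20.2 points among rises and -17.1 points among falls, and over all tested dyads it was 20 and -17 points. Of the isolated calls 2066 (3.9% of those tested) reached 20 points, where 4.68% of all tested dyads did, and 56 reached 40 points, where 0.145% of all tested dyads (627) did. In 3504 calls the 4 libraries of each tissue did not overlap, and over all tested dyads 8.22% were called without overlap. Called or not, 12.3% of tested isolated dyads and 14.4% of all tested dyads had no overlap. Over all tested isolated dyads the median difference was 0.974 points and 56.8% of isolated dyads were higher in hypothalamus, against 1.39 points and 59.4% for all tested dyads.

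Depth and the choice of libraries moved this count. Requiring 20 calls in every library left 2086 calls of 23027 tested, a share of 9.06%, where the same requirement gave 11.4% of all dyads. Without the hypothalamus libraries of the like pairs (1 and 4) there were 1721 calls, 77.1% of them higher in hypothalamus, and without the hippocampus libraries of those pairs 2621. With a dispersion estimated from each dyad alone no dyad was called in either tissue direction (0, with 7256 at an unadjusted p under 0.05), while edgeR's quasi-likelihood test called 3451 and limma on logit levels 2298.

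Calls were most frequent at levels between the extremes. Called shares of isolated dyads were 6.48% for mean levels of 5% to 20%, 15% for 20% to 50%, 13.4% for 50% to 80% and 3.8% for 80% to 95%. The corresponding shares of all tested dyads were 5.33%, 16%, 16.5% and 5.02%. Most tested isolated dyads (55.9%) were in the top range. In the range of 50% to 80% the share in tiles of 3 to 20 dyads was 17.1%, and at 5% to 20% it was 5.87%, just under that of isolated dyads.

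**Figure D3:**
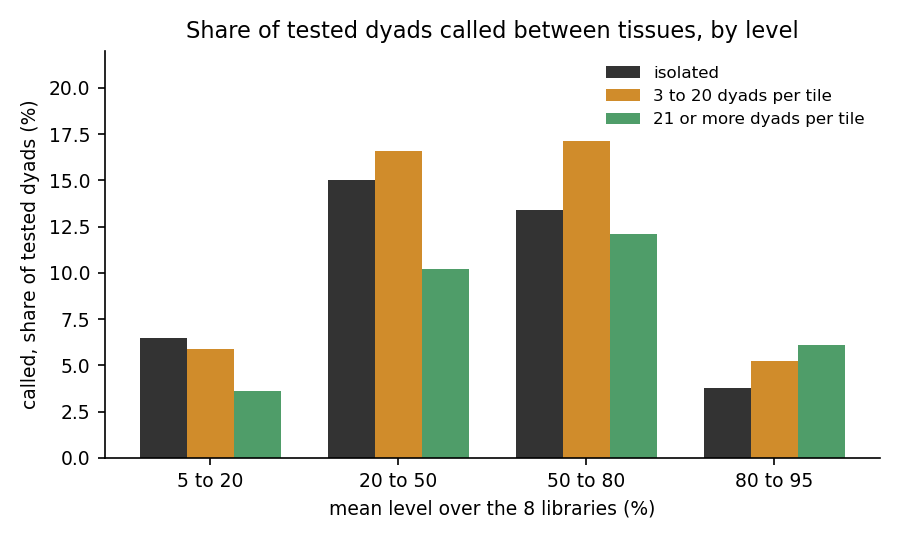
Share of tested dyads called between tissues (y axis, percent) by mean level over the 8 libraries (x axis, percent), for isolated dyads, tiles of 3 to 20 and tiles of 21 or more kept dyads. Isolated dyads were called most often from 20% to 80% (15% and 13.4%) and least from 80% to 95% (3.8%).

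By kept dyads in the tile, called shares were 7.66% for single dyads and 8.15% for pairs. Tiles of 3, 4, 5 and 6 with no dense tile near had 8.96%, 9.78%, 10.3% and 10.8%, but tiles of 21 or more had 6.22%. By dyads listed in any library there was no such climb among isolated dyads: 8.14% at 1 listed dyad, 7.97% at 2, 8.02% at 3 to 4, 7.57% at 5 to 10, 10.6% at 11 to 20 and 5.06% at 21 or more. Read position made little difference, with 7.88% of first and 7.77% of inner cytosines called. Isolated dyads with each strand listed in at least 1 library, which have more calls, were called at 9.03%. The shares over all kept dyads were higher in each kind, 8.95% of first and 9.52% of inner cytosines and 12.3% of those on both strands.

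The dyads of largest difference were chosen among those whose tissues did not overlap, so their separation is a description. At chr7:33814948-33814949 hippocampus 1 to 4 had levels of 21.7%, 41.1%, 52.2% and 37.9% and hypothalamus 1 to 4 had 90.5%, 90.6%, 94.7% and 100%, a gain of 55.7 points (SE 6.69, adjusted p = 1.11e-05 from the logistic model). Hypothalamus was near full methylation and hippocampus below or near the middle. The other kept dyad of that tile, chr7:33814925-33814926, had 34.8%, 44.6%, 44.8% and 33.3% in hippocampus and 74.4%, 84.4%, 84.2% and 91.7% in hypothalamus. Both dyads of the pair were thus high in all 4 hypothalamus libraries.

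The same size of gain was seen at sites with no other listed dyad in their tile. Chr6:21573046-21573047 was such a site, and its levels were 50.8%, 36.8%, 35.5% and 41.7% in hippocampus and 88.9%, 90.0%, 94.7% and 96.2% in hypothalamus. The gain of 51.3 points (SE 3.88, adjusted p = 1.73e-06) was 46.3 points within the like libraries, 1 and 4, and 56.2 points within replicates 2 and 3. Chr5:149437414-149437415, also alone, went from 31.2% ± 5.16 to 79.5% ± 9.02 (SD, n = 4 each).

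The other large gains also started low in hippocampus. At chr19:70228527-70228528 the level rose from 16.5% ± 4.53 to 69% ± 17.2, with only 11 to 26 calls per library and the hypothalamus libraries spread from 52.9% to 91.7%. The level at chr9:8306237-8306238 rose from 30.9% ± 5.42 to 82.8% ± 12.8, at chr1:23485408-23485409 from 37.1% ± 11.8 to 88.1% ± 4.44, and at chr3:174473927-174473928 from 31.3% ± 6.65 to 81.1% ± 9.05. At chr6:80367266-80367267 it went from 37.6% ± 9.44 to 87.2% ± 3.92 (SD, n = 4 each throughout). All 8 gains were between 48.3 and 55.7 points. The shallowest library at each gain was hypothalamus 3 or hypothalamus 4. It had 11 calls at chr1:23485408-23485409, 12 at the chr7 and chr3 dyads and 13 at the chr9 dyad. At the chr5 dyad it had 18, at chr6:21573046-21573047 19 and at chr6:80367266-80367267 21.

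Falls were smaller. Chr20:3988914-3988915 had 86.4%, 100%, 85.2% and 87.5% in hippocampus and 58.3%, 35.0%, 44.4% and 54.5% in hypothalamus, a drop of 41.7 points that rested on 11 to 40 calls per library (SE 6.28, adjusted p = 0.000171). Within the 4 libraries of lower CHH level it fell by 53.5 points, while within the 4 of higher level the difference was -29.9 points and not called (adjusted p = 0.106). At chr3:176621745-176621746 the level was 58.3%, 40%, 48% and 43.5% in hippocampus and 12.1%, 5.08%, 6.25% and 0% in hypothalamus, where 16 calls allow up to 18.8% in the last library. That dyad averaged 5.86% ± 4.98 in hypothalamus (SD, n = 4), and hippocampus 1 and 2 had only 12 and 10 calls there. Its tile held 18 listed dyads, of which only 1 was kept. Chr7:136821995-136821996, the only dyad listed in its tile, fell from 74.7% ± 6.78 to 40.8% ± 7.33 (SD, n = 4 each). The other 5 of the 8 largest falls were of 32.1 to 34.0 points. Each set of 4 libraries holds 2 per tissue. Over isolated dyads the set of higher CHH level gave 1242 calls and that of lower level 2274, against 4235 with all 8 libraries. The 8 largest falls, of 32.1 to 41.7 points, were also smaller than the 8 largest gains, of 48.3 to 55.7 points. Of these 8 falls, 6 were not called within the 4 libraries of higher CHH level, whereas the 8 largest gains were called within either set of 4. Whether the directions differ in this was not tested. Besides the chr20 dyad and 2 in the pairs that follow, these were chr7:136821995-136821996 (-23.3 points, adjusted p = 0.088, against -44.4 in the lower set), chr14:79464341-79464342 (-28.7 points, adjusted p = 0.152) and chr19:50970869-50970870 (-20.4 points, adjusted p = 0.186, against -44.0 in the lower set). Within the 4 libraries of lower level the call was lost at chr4:186043420-186043421 (-35.2 points, adjusted p = 0.0529).

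**Figure D4:**
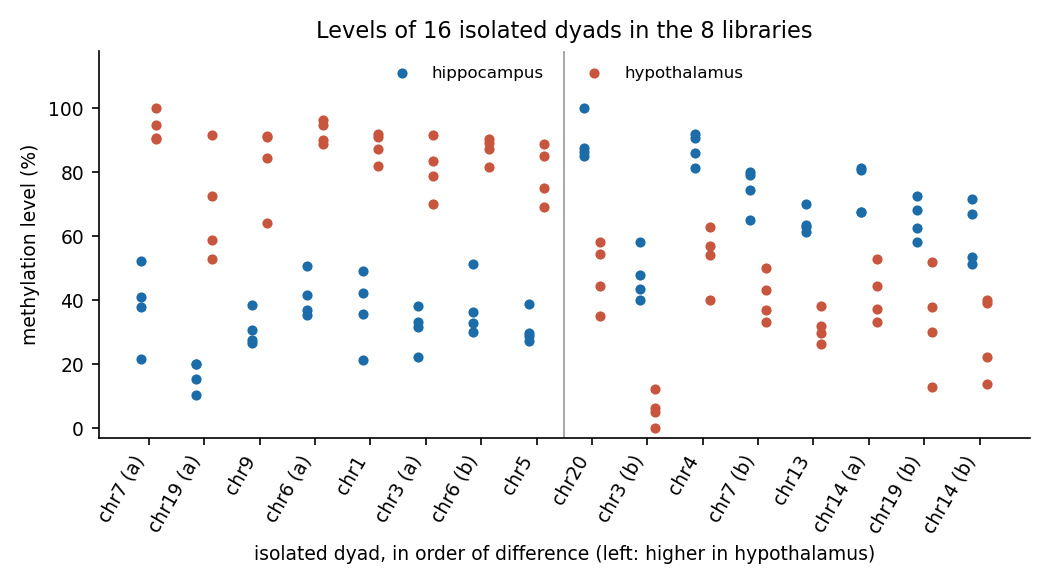
Methylation level (y axis, percent) of 16 isolated dyads in the 8 libraries, in order of difference along the x axis, with gains in hypothalamus on the left and falls on the right of the line. Points are libraries, blue for hippocampus and red for hypothalamus, and at none of the 16 do the tissues overlap, since non-overlap was part of the rule that chose them.

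Sites that shared a tile were sometimes called together. Of 16165 tiles with both dyads tested, both were called in 699 and only 1 in 1497. The 699 are 4.32% of those tiles, and of 285540 pairs of adjoining tested dyads in a tile of any density, which lay closer together (median gap 29 bp against 64 bp), both were called in 6.64%. In 697 of the 699 (99.7%) they went the same way, and in tiles of any density 99.9% of the pairs with both called did. Of all isolated calls 88.1% point to hypothalamus. Both were called without overlap in 503 tiles higher in hypothalamus and 32 tiles higher in hippocampus, 3.11% and 0.198% of the tiles, where all pairs gave 4.77% and 0.406%. The strongest pairs upward were the chr7 pair above, chr6:80367266-80367267 with chr6:80367365-80367366 (49.6 and 46.4 points) and chr3:174473905-174473906 with chr3:174473927-174473928 (42.7 and 49.8 points). At chr6:80367365-80367366 the hypothalamus libraries lay within 84.0% to 85.7%, a spread of 0.795 points (SD, n = 4). Downward, chr13:105936004-105936005 and chr13:105936028-105936029 fell by 32.9 and 31 points, chr14:88971937-88971938 and chr14:88971981-88971982 fell by 32.1 and 31.9 points, and chr9:28274699-28274700 and chr9:28274721-28274722 fell by 32.1 and 29.7 points. Within the 4 libraries of higher CHH level, neither chr14:88971937-88971938 (-21.3 points, adjusted p = 0.176, against -43.0 points in the lower set) nor chr13:105936004-105936005 (-29.8 points, adjusted p = 0.0615) was called. Within the lower set chr9:28274721-28274722 was not called (-28.6 points, adjusted p = 0.0886). In the chr13 pair the dyads kept different levels, 64.4% and 89.2% in hippocampus and 31.5% and 58.1% in hypothalamus, but fell by nearly the same amount. Of the 23 dyads named for a difference here, the call at chr9:28274721-28274722 was lost without hypothalamus replicate 1 (adjusted p = 0.0561), and the dyads of a pair are often on the same reads.

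Tiles in which only 1 of the dyads was called are given as a description, since that choice itself makes the partner's difference the smaller. In 1497 tiles with 1 call and a tested partner, the partner differed in the same direction in 1316 (87.9%), by a median of 7.61 points where the called dyad differed by 18.1. As stated above, 88.1% of calls and 56.8% of all tested isolated dyads were higher in hypothalamus. Over all 22023 pairs the levels of the 2 dyads differed by a median of 6.21 points, with 3.51 points at gaps of 2 to 10 bases, 5.14 at 11 to 30, 6.7 at 31 to 60, 7.78 at 61 to 100, 6.34 from 100 to 200 and 7.52 at gaps over 200 bases. It was smallest at the shortest gaps and did not rise steadily beyond 60 bases. Single libraries gave a median of 7.14 to 8.82 points, highest in hypothalamus 3, the shallowest.

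Neighbours were alike at short range, and likeness was near 0 beyond 1000 bases. Over pairs in a tile, Pearson's r of the tissue difference was 0.763 at gaps of 2 to 10 bases (1240 tiles), 0.655 at 31 to 60, 0.468 at gaps over 100 and up to 200 and 0.347 at longer gaps (1368 tiles). Between adjoining isolated dyads of different tiles it was 0.512 up to 200 bases (3190 neighbours), 0.35 from there to 500 and 0.392 from 500 to 1000 (148 neighbours), and then 0.0305 from 1000 to 2000 bases (848 neighbours) and 0.019 beyond 50000. Between tiles the levels, taken over tested dyads only, followed the same course, from r = 0.637 up to 200 bases to 0.0828 from 1000 to 2000. These are correlations over sites that share all 8 libraries and, at short gaps, the same reads and fragments. Fragments of 150 to 300 bases were selected, per the labels, so the values from 500 to 1000 bases come from different fragments, though from few sites.

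**Figure D5:**
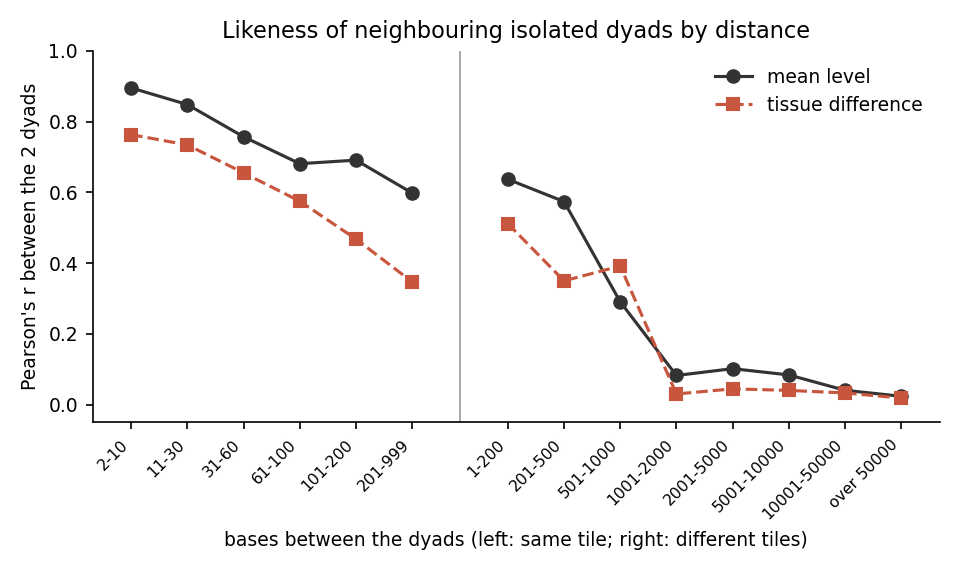
Pearson's r between neighbouring isolated dyads (y axis) for mean level (black) and tissue difference (red), by bases between them (x axis, unequal steps), in the same tile on the left and in different tiles on the right. Both are lower at longer distances, with small reversals on the way, and reach 0.0828 and 0.0305 at 1000 to 2000 bases.

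Both neighbours were called in 132 of 3190 cases within 200 bases across a tile edge, and 131 had the same direction. Over all adjoining tested dyads within a tile of any density, both were called in 6.64%. At 10000 to 50000 bases both were called in 87 of 13306 cases. Of these, 70 had the same direction, where most calls of any pair point to hypothalamus. The nearest other kept dyad was a median of 81 bases away from an isolated dyad (212 bases for those alone in a tile), so many isolated dyads had a kept neighbour just over a tile border.

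Isolated dyads matched to promoters were a low subset. The 386 matched dyads had a mean level of 40.7% and a median of 31.6%, with 182 (47.2%) under 20% and 111 (28.8%) over 80%. Of the 226 tested, 11 (4.87%) were called, 8 higher in hypothalamus and 3 higher in hippocampus, and 8 of the 11 had no overlap between tissues. Over all tested dyads 9.81% were called (8.58% higher in hypothalamus, 1.23% higher in hippocampus, 8.22% without overlap), and over isolated dyads 7.99%. The matched windows held a median of 8 CpGs and all windows 7. Genes are named below after their values were seen, and positions are given in bases from the RefSeq gene start, negative before it.

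Among called rises, the dyad at -190 of Krt2, a keratin gene of skin, had levels of 71.1%, 61.4%, 62.7% and 67.8% in hippocampus and 89.1%, 93.4%, 82.1% and 90.9% in hypothalamus (23.1 points, SE 3.31, adjusted p = 0.0013). Every hypothalamus library was above every hippocampus library, and no single library left out ended the call. Within the 4 libraries of higher CHH level the Krt2 difference was 24.7 points and not called (adjusted p = 0.0732). Batf2, which encodes a basic leucine zipper transcription factor, had 53.9%, 37.0%, 41.3% and 38.3% against 66.7%, 62.3%, 58.3% and 55.6% at -154 (18.1 points, SE 4.57, adjusted p = 0.021). Its second CpG at -121 went from 22.6% ± 2.64 to 33.7% ± 7.34 (SD, n = 4 each) and was not called (adjusted p = 0.0734). A further isolated dyad, at 45 bases after the start, had 52% ± 11.5 and 58.6% ± 9.76 (SD, n = 4 each), with overlapping tissues (adjusted p = 0.679). The call at -154 was lost without hippocampus 2 (adjusted p = 0.0566), hippocampus 4 (0.0548), hypothalamus 1 (0.101) or hypothalamus 2 (0.0647). It was also lost within the 4 libraries of lower (0.268) or higher CHH level (0.111) and without hypothalamus libraries 1 and 4 (0.145). Without hippocampus libraries 1 and 4 it was kept (0.0304). At Cavin2, a gene of caveolar membrane coats, the CpG at 6 bases after the start had 30.9% to 35.6% in hippocampus and 50% to 63.5% in hypothalamus (adjusted p = 0.000963). For Olfm3, encoding a secreted olfactomedin of the nervous system, the level at -167 went from 17.0% ± 5.42 to 33.5% ± 11.2 (adjusted p = 0.0144), and here the tissues overlapped, hippocampus 3 being at 24.6% and hypothalamus 4 at 20%. Without hypothalamus 2 the Olfm3 difference was 11.9 points and not called (adjusted p = 0.187), and within the 4 libraries of higher CHH level it was 5.8 points (adjusted p = 0.702). Without hippocampus libraries 1 and 4 it was 14.2 points and not called (adjusted p = 0.127).

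Ppm1m, a protein phosphatase gene, had a called fall. At -34 its levels were 15.3%, 20%, 20.6% and 21.6% in hippocampus and 10.1%, 7.69%, 0% and 10.4% in hypothalamus, a drop of 12.3 points (SE 2.8, adjusted p = 0.0149). The 0% in hypothalamus 3 came from 20 calls and allows up to 15%. All 4 hypothalamus values were below the hippocampus values. The call was lost without hypothalamus 2 (adjusted p = 0.0642) and without hypothalamus 3, where the difference of -9.96 points was under the limit of 10. It was also lost within the 4 libraries of lower CHH level (adjusted p = 0.139) and the 4 of higher level (0.2). The same held without hypothalamus libraries 1 and 4 (0.0565) and without hippocampus libraries 1 and 4 (0.0514).

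None of the isolated dyads at Kiss1, Galr3, Oprm1 and Mc3r, the 4 brain signalling genes picked for display, was called. Kiss1, which encodes kisspeptin, a peptide that drives the reproductive axis from the hypothalamus, had levels of 66.2% to 88.4% in the tissue means of its 3 isolated CpGs: 82.8% ± 3.84 and 82.5% ± 4.82 at -13, 88.4% ± 5.5 and 78.1% ± 7.14 at -49 (adjusted p = 0.0936), and 75.5% ± 10.6 and 66.2% ± 11.3 at -81 (adjusted p = 0.407). Galr3, a receptor for galanin, was low at -187 with 8.06% ± 3.8 and 7.47% ± 2.11. At -167, only a few bases on, the 4 hippocampus libraries had 20.3% to 23.8% and the 4 hypothalamus libraries 8.11% to 16.7%, without overlap but at an adjusted p of 0.0523. Oprm1, the mu opioid receptor, had 43.1% ± 11.3 and 62.7% ± 20.1 at -58, with hypothalamus 4 at 90.9% and the tissues overlapping (adjusted p = 0.413). Mc3r, a melanocortin receptor of energy balance, had 30.2% ± 8.78 and 33.5% ± 21.7 at -133 and 42.3% ± 10.4 and 35.5% ± 12.5 at -84, on 11 to 38 calls per library (SD, n = 4 each). A p over the threshold does not show that these levels were equal.

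A few promoters from the ends of the range are given as examples, picked after their values were seen and not standing for any class of gene. At the low end, Eif3f, a translation initiation factor, had 1.46% ± 1.91 and 0.476% ± 0.952 at -97 and 1.46% ± 1.47 and 0.372% ± 0.481 at -57. Tomm70, a mitochondrial import receptor, had 1.12% ± 1.3 and 1.07% ± 1.24 at -224, and Sf3b3, a splicing factor, 1.79% ± 1.76 and 1.14% ± 0.851 at 21. Higher values for these dyads in hippocampus came from libraries 3 and 4 at Eif3f, the same libraries with the highest CHH levels, and the part of unconverted DNA in values this low was not tested. At the high end, Taar6, an olfactory trace amine receptor, had 88.8% ± 1.93 and 84.3% ± 4.07 at -44 and 92.7% ± 2.72 and 92.1% ± 4.55 at -18. Or2f1b, an olfactory receptor, had 96.4% ± 0.776 and 98.4% ± 1.92 at -181, and Spem1, a gene of sperm maturation, 94.9% ± 3.69 and 95.9% ± 5.07 at -19 (SD, n = 4 each, hippocampus first).

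Some isolated dyads differed widely between libraries of 1 tissue. Among those with at least 20 calls everywhere, 114 had a range over 50 points within a tissue, while the median largest range was 11.8 points (8.11 over all kept dyads). The widest was chr12:44894373-44894374, where hippocampus 1 to 4 had 100%, 5.88%, 38.3% and 96.7% and hypothalamus 1 to 4 had 95.3%, 60.4%, 0% (of 23 calls, which allow up to 13%) and 97.7%. Chr12:13384444-13384445 had 94.2%, 0% (of 64 calls, up to 4.69%), 92.2% and 3.54% against 88.4%, 47.7%, 51.4% and 2.0%. In both, the libraries numbered 1 and those numbered 4 were close across tissues, and the other 2 numbers were not. These 5 widest dyads, with chr13:110861313-110861314, chr1:216633577-216633578 and chr11:66814202-66814203, all belonged to the 25 that vary like a genotype. Of the 25, 1 was called between tissues and 0 were called without overlap by the same model. Over all tested dyads the shares were 9.81% and 8.22%, and 25 dyads are too few to set against them. Dyads with fewer than 20 calls in some library were not screened in this way.

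Methylation outside CpG was also measured in tiles that hold isolated dyads. At cytosines followed by A in these tiles hippocampus averaged 3.29% ± 1.59 and hypothalamus 2.55% ± 0.645 (SD, n = 4 each). After each library's level at CHH followed by C was taken off, hippocampus 1 to 4 kept 1.72, 1.4, 2.71 and 2.9 points and hypothalamus 1 to 4 kept 2.07, 1.48, 1.79 and 2.05 points. The tissues overlapped, and hippocampus 3 and 4, with the highest CHH followed by C, remained highest. By the same measure tiles of 3 to 20 dyads had means of 2.02 and 1.67 points and tiles of 21 or more 0.884 and 0.215. These were below the 2.18 and 1.85 of isolated tiles. The 0.884 came mostly from hippocampus 3 and 4 (1.56 and 1.65 points), while hippocampus 1 and 2 kept 0.213 and 0.113 points.

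Across isolated dyads, libraries of hippocampus resembled each other most. Over 63691 dyads, pairs of hippocampus libraries had a Pearson's r of 0.941 to 0.951, pairs of hypothalamus libraries 0.873 to 0.925, and pairs from different tissues 0.866 to 0.915. The lowest within-tissue value was that of hypothalamus 3 and 4, the shallowest libraries, and as a correlation over sites of unequal depth it is a description only.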

How the data were processed

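Reduced representation bisulfite libraries of rat hippocampus (4) and hypothalamus (4) were grouped by the tissue in their labels. The authors deposited for each listed cytosine a count of methylated calls, a count of all calls and their fraction, with at least 10 calls at every position. The deposited fraction was not used. Bowtie and build rn5 are named in the submitters' processing notes. Trimming, the methylation caller and the handling of duplicates were not given in the sources used here, and filled-in ends or duplicate reads would change levels or their precision. MspI digestion and selection of fragments of 150 to 300 bases are per the labels' protocols.

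Counts on both strands of a dyad were added where both were listed. By library 3.59% to 10.6% of isolated dyads had both. Levels are percentages per dyad, and means over dyads weight each equally. The logistic model used Python 3.11.15 and R 4.3.3 with limma 3.58.1 (squeezeVar, trend on the information of a dyad, dispersion not under 1), an F test with tissue as its only term, and Benjamini-Hochberg adjustment over all 433557 tested dyads. The scripts were tested on simulated data. edgeR 4.0.16 and limma on logit levels were alternatives. Standard errors come from the SDs of library levels.

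Dyads named by coordinate followed a rule: among called dyads without overlap, the 8 largest differences in each direction; the 3 largest pairs in each direction among tiles with both dyads called; the 5 lowest levels with at least 30 calls and the 5 widest ranges within a tissue with at least 20 calls in every library. Members, rules and lists were chosen with earlier results of these data known. Limits for levels of 0 use 3 counts. Same-numbered libraries deviated together unequally, with correlations of 0.111, 0.0319, 0.0511 and 0.106 over tested isolated dyads, so numbers were not taken as pairs. Gene annotation and sequence of build rn5 were not used here.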

Additional observations from a re-analysis of the deposited data

Results flagged for a closer look

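The 4 libraries of a tissue were checked for 1 value far from the other 3, by Dixon's ratio of gap to range. The check took in the dyads named by coordinate, except those of widest range, and those of the promoters printed as sequence. Also checked were each tissue's mean isolated level and its level at C followed by A less that at CHH followed by C. Other named dyads, such as that of Cavin2, were not checked. This flagged 9 of 96 groups of 4. Chance flags about 1 in 20 groups (4.8 here), but that rate does not apply to groups with 3 values of 0, where any other value is flagged, and such groups make up 5 of the 9. At chr20:3988914-3988915 hippocampus 2 was at 100% and the others at 85.2% to 87.5%. At 4 of the lowest dyads a single hippocampus library had a methylated call and the others had 0%: 0.69% at chr2:191541999-191542000, 0.855% at chr14:15745382-15745383, 1.02% at chr7:117259993-117259994 and 1.11% at chr1:102778965-102778966. At Eif3f the dyad at -97 had 1.9% in hypothalamus 1 and 0% in the other 3 hypothalamus libraries.

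In promoters of brain signalling genes, the Mc3r dyad at -84 was at 26.7% in hippocampus 1 and 47.1% to 48.1% in hippocampus 2 to 4. The Kiss1 dyad at -49 stood out in both tissues, with 80.2% in hippocampus 2 against 90.3% to 92.1%, and 67.4% in hypothalamus 4 against 81.2% to 82.2%.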

How the results depend on the processing

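Of the calls at the 23 dyads named by coordinate for a difference, whose direction the choice of non-overlapping dyads fixes, all 23 were lost with a dispersion of each dyad alone, 6 in the 4 libraries of higher CHH level and 2 in the 4 of lower level, all 8 of them falls, 2 with replicates 2 and 3 only and 1 with limma on logit levels. At the named promoter dyads, Krt2 kept its call under 15 of 17 alternatives, Cavin2 under 16, Olfm3 under 12, Ppm1m under 10 and Batf2 under 8 of 18. The call at chr9:28274721-28274722 was also lost without hypothalamus libraries 1 and 4 (adjusted p = 0.0794). The count of 4235 called isolated dyads was 2955 to 4506 when 1 library was left out, 3451 by edgeR, 4153 with shifted tiles, 4020 with no dense tile within 10 tiles and 3897 without the level filter. It moved by over 1.5 times with at least 20 calls per library (2086), a dispersion of each dyad alone (0), limma on logit levels (2298), a difference of 20 points (2066), replicates 2 and 3 only (976), the 4 libraries of lower (2274) or higher CHH level (1242), density from dyads listed in any library (2539, still 8.01% of those tested), tiles with 1 dyad (1263) and, chosen after seeing the data, without hypothalamus libraries 1 and 4 (1721) or hippocampus libraries 1 and 4 (2621). Stricter coverage, a larger difference and fewer members leave fewer dyads that can be called, by construction. The cause of the other moves was not tested. The share higher in hypothalamus was 77.1% to 92.4% wherever calls were made.

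With the replicate number as a block (replicate block), 5407 isolated dyads were called. The mean difference is 1.84 points with or without the block by construction. In deviations from the tissue means every library correlated best with its own number, a hint from the data only. At the 25 dyads that vary like a genotype this held for numbers 1 and 4 but not for 2 and 3, whose level classes were the same at 24% and 16%. The mean difference ranged from 1.06 to 2.24 points with 1 library left out. The share of dyads over 80% became 64.2% with density from any library. With a median of 21 and 31 calls in the shallowest libraries, differences under 10 points at single dyads were not assessed.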
